A study of Homo sapiens with 16 samples.

Results

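A set of 10 genes of glycolysis (HK1, GPI, PFKP, ALDOA, TPI1, GAPDH, PGK1, PGAM1, ENO1 and LDHA) were followed through ribosome profiling and RNA sequencing of breast cancer lines, with PGK1 as the gene of main interest. They were taken by name, after the transcript identifiers of the tables had been matched to gene symbols with GENCODE version 44 on hg38, by a rule that sets no threshold on a measured value, although the fall of PGK1 in MDA-LM2 cells was already known. A matched transcript was found for 8 of the 10 genes, out of 10799 transcripts listed for MDA-LM2 and parental cells and 8980 listed for the knockdown and its control. HK1 and LDHA had no matched transcript in either table and were not analysed here.

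The study asked how translation differs between poorly and highly metastatic cells. Parental MDA-MB-231, a poorly metastatic triple-negative human breast cancer line, was compared with MDA-LM2, its highly metastatic derivative. MDA-MB-231 cells carrying the repressor dCas9-KRAB and a guide against HNRNPC (sgHNRNPC) were compared with the same cells carrying a control guide (sgControl). All lines were grown in high-glucose medium, and each was sampled as 2 replicates, with ribosome-protected footprints (RPFs) and RNA prepared from the same lysates. The labels name no treatment that differs between the lines beyond their genotype. MDA-LM2 is a single derived line, and HNRNPC was reduced by repression of its promoter rather than deleted.

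Glycolysis splits glucose into pyruvate in the cytosol. The upper steps use ATP to phosphorylate and cleave the sugar, and the lower steps oxidize the resulting triose phosphates and return ATP. PGK1, phosphoglycerate kinase, carries out the first of the ATP-yielding steps by moving a phosphate from bisphosphoglycerate to ADP. Many tumour lines run this pathway at a high rate even with oxygen present and release the pyruvate as lactate, and most of its genes are targets of the hypoxia-inducible factor HIF1A. Translation efficiency (TE) was taken as RPF value divided by RNA value, so it falls when fewer footprints are found for the same amount of mRNA.

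The deposited RNA values correspond to 7517953 to 8193031 reads per library for MDA-LM2 and parental cells and to 5141959 to 6164753 reads for the knockdown pair. The RPF values are not multiples of whole reads, so their depth is unknown, and they summed to 650736 to 679726 normalized counts in the first pair and to 158011 to 167928 in the second. The RNA replicates of MDA-LM2 stood further apart than those of the other lines: the median absolute difference between replicates over tested transcripts was 0.199 on the log2 scale, against 0.0949 in parental cells, 0.0776 in sgControl and 0.073 in sgHNRNPC. HNRNPC itself, the targeted gene, gave RNA values of 2162 and 2146 in sgControl and 1147 and 1183 in sgHNRNPC, which did not overlap (log2 change -0.89, adjusted p = 5.14e-28 by limma). Of the mesenchymal markers VIM, CD44, AXL, CAV1 and MSN, all 5 had a matched transcript at RNA values of 1637 or more in parental and MDA-LM2 cells, and SPARC had none. Of 8 genes held to be low in this line, 4 had a matched transcript. GATA3 lay at 18.6 or less and EPCAM at 46.5 or less, ERBB2 lay between 708 and 812, and KRT8, a keratin, went against the list at 10726 and 10292 in parental cells.

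PGK1 was measured on a transcript of 4812 bases and 11 exons at chrX:78104248-78129295 (hg38, plus strand), with a coding sequence of 1254 bases and an annotated 3′ UTR of 3465 bases. Its promoter is shown because it holds 3 copies of ACGTG, the letters at the core of the hypoxia response element. The window runs from 250 bases before to 50 bases after the transcript start (chrX:78103998-78104297, GRCh38.p14, plus strand, RefSeq), and the capitals mark ACGTG or its reverse complement CACGT:

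PGK1: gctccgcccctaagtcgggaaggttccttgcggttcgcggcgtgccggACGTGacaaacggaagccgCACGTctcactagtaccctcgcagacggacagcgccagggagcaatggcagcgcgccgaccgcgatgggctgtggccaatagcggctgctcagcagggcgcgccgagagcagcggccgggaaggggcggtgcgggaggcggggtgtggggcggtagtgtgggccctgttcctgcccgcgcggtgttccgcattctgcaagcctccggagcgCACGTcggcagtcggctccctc

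The RNA value of PGK1 was 6031 and 6135 normalized counts in the parental replicates and 3870 and 3802 in the MDA-LM2 replicates. Its RPF value was 799 and 839 in parental cells and 533 and 548 in MDA-LM2 cells. Both kinds of library thus put MDA-LM2 below parental cells with no overlap, at 63.1% of the parental mean in RNA and 66.0% in RPF. The log2 change was -0.67 ± 0.11 (SE, adjusted p = 0.00977 by limma) in RNA and -0.60 ± 0.09 (SE, adjusted p = 6.05e-06) in RPF. Since this fall was known beforehand, the tests add no independent evidence for it. The RPF call held under each alternative run, with an adjusted p of 0.00091 at most. The RNA call did not: the adjusted p was 0.161 when either parental replicate was left out, and the RNA change shrank to -0.41 after quantile normalization.

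The TE of PGK1 was 0.133 and 0.137 in parental cells and 0.138 and 0.144 in MDA-LM2 cells, on the scale of RPF value over RNA value. The MDA-LM2 replicates lay above the parental replicates, by less than the fit could separate from 0 (log2 change 0.07, 95% interval -0.23 to 0.36, adjusted p = 0.966 by limma). The sign of this change was not stable, since it was -0.05 with libraries scaled to equal totals and -0.04 after quantile normalization.

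In the knockdown pair the PGK1 RNA value was 2996 and 2911 in sgControl and 2863 and 2743 in sgHNRNPC, and its RPF value was 166 and 191 against 140 and 186. The RNA replicates did not overlap and the RPF replicates did. Neither difference passed the test, with a log2 change of -0.08 ± 0.04 (SE, adjusted p = 0.246) in RNA and -0.14 ± 0.16 (SE, adjusted p = 0.875) in RPF. The TE was 0.0554 and 0.0655 in sgControl and 0.0490 and 0.0680 in sgHNRNPC, and these values overlapped (log2 change -0.06, 95% interval -0.48 to 0.36). The knockdown pair was normalized apart from the MDA-LM2 pair, so its levels cannot be set against those of parental or MDA-LM2 cells.

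**Figure D1:**
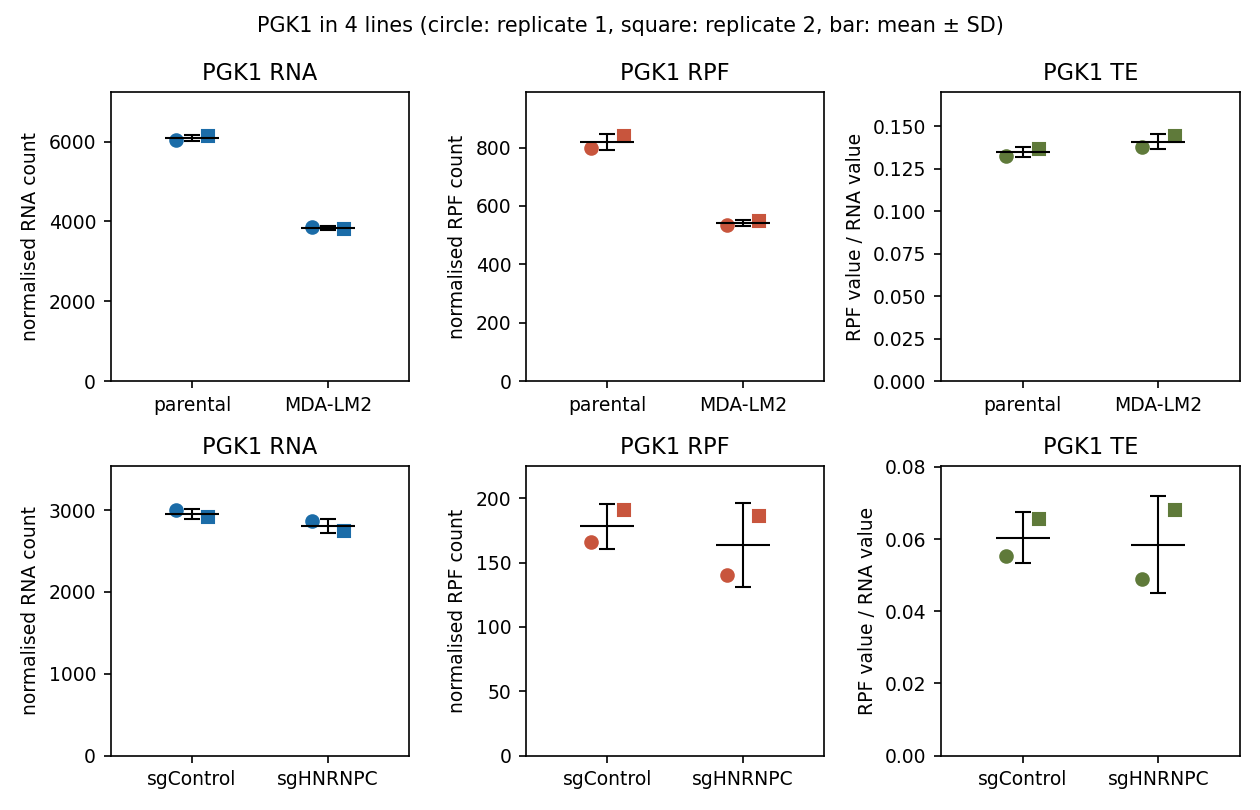
PGK1 in each library of the 4 lines: normalized RNA count (left), normalized RPF count (middle) and RPF value over RNA value (right), with circles for replicate 1, squares for replicate 2 and bars for the mean ± SD (n = 2). RNA and RPF of MDA-LM2 lie below both parental replicates, the TE differs little, and sgHNRNPC lies close to sgControl.

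Of the enzymes of the upper pathway, GPI (glucose phosphate isomerase, which turns glucose phosphate into fructose phosphate) differed least between MDA-LM2 and parental cells. Its RNA values were 3923 and 4122 in parental cells and 3713 and 4018 in MDA-LM2 cells, which overlap, and its RPF values were 522 and 495 against 471 and 456. GPI did not pass the test in RNA (log2 change -0.06, 95% interval -0.33 to 0.21) or in RPF (-0.13, 95% interval -0.32 to 0.05).

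PFKP, the platelet type of phosphofructokinase and so an enzyme of the committing step, gave RNA values of 5895 and 5482 in parental cells and 3997 and 3660 in MDA-LM2 cells. The RPF values of PFKP were 535 and 480 in the parental replicates and 394 and 404 in the MDA-LM2 replicates. Both fell without overlap, RNA by 0.57 on the log2 scale (SE 0.12, adjusted p = 0.0215) and RPF by 0.35 (SE 0.10, adjusted p = 0.0131). The RPF call was lost after quantile normalization (adjusted p = 0.184), without parental replicate 1 (adjusted p = 0.192) and without MDA-LM2 replicate 1 (adjusted p = 0.0532).

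ALDOA, the aldolase that cleaves the phosphorylated sugar, was where the MDA-LM2 RNA replicates disagreed most. Its RNA values were 6384 and 6883 in parental cells and 5802 and 3135 in MDA-LM2 cells, a log2 difference between the MDA-LM2 replicates of 0.888. The RPF replicates of ALDOA showed no such gap, at 889 and 817 in parental cells and 591 and 568 in MDA-LM2 cells. ALDOA passed the test in RPF (log2 change -0.56 ± 0.09, SE, adjusted p = 2.08e-05) and not in RNA (-0.64 ± 0.26, SE, adjusted p = 0.144). The RNA change was -1.08 when MDA-LM2 replicate 1 was omitted and -0.19 (adjusted p = 0.0476) when replicate 2 of that line was.

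TPI1, the triose phosphate isomerase, gave RNA values of 15289 and 14445 in parental cells and 10970 and 8035 in MDA-LM2 cells. In RPF it reached 595 and 601 in parental cells against 418 and 395 in MDA-LM2 cells. MDA-LM2 lay lower in both without overlap, with a log2 change of -0.66 ± 0.17 (SE, adjusted p = 0.0425) in RNA and of -0.56 ± 0.09 (SE, adjusted p = 4.62e-05) in RPF. The RNA call of TPI1 was lost with a minimum mean of 50 (adjusted p = 0.0579) and after quantile normalization (adjusted p = 0.0823).

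In the lower pathway, GAPDH, the dehydrogenase that feeds PGK1, had the highest values of the set. Its RNA values were 61406 and 63169 in parental cells and 46434 and 39247 in MDA-LM2 cells, and its RPF values were 1887 and 1648 against 1419 and 1382. MDA-LM2 was lower in both without overlap, and GAPDH passed the test in RPF (log2 change -0.33 ± 0.08, SE, adjusted p = 0.00382) but not in RNA (-0.54 ± 0.16, SE, adjusted p = 0.0668). The RPF call was lost without parental replicate 1 (adjusted p = 0.134) and after quantile normalization (adjusted p = 0.344).

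PGAM1, the mutase that acts after PGK1, gave RNA values of 7677 and 7481 in parental cells and 5963 and 5009 in MDA-LM2 cells, and RPF values of 366 and 365 against 276 and 274. The RPF values fell by 0.41 on the log2 scale (SE 0.10, adjusted p = 0.00552), and the RNA change of -0.47 had an adjusted p of 0.0543. Much of this signal cannot be assigned to PGAM1 alone: 453 of the 736 windows of 30 bases in its coding sequence (61.5%) also occur in PGAM4, a listed paralogue.

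ENO1, the enolase that makes phosphoenolpyruvate, gave RNA values of 16965 and 18113 in parental cells and 10610 and 15116 in MDA-LM2 cells. Its RPF values came to 1621 and 1515 in parental cells against 1111 and 1036 in MDA-LM2 cells. As with ALDOA the RNA replicates of MDA-LM2 were far apart and the RPF replicates were close, but here replicate 1 was the lower. ENO1 passed the test in RPF (log2 change -0.55 ± 0.08, SE, adjusted p = 5.78e-06) and not in RNA (-0.47 ± 0.19, SE, adjusted p = 0.133).

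**Figure D2:**
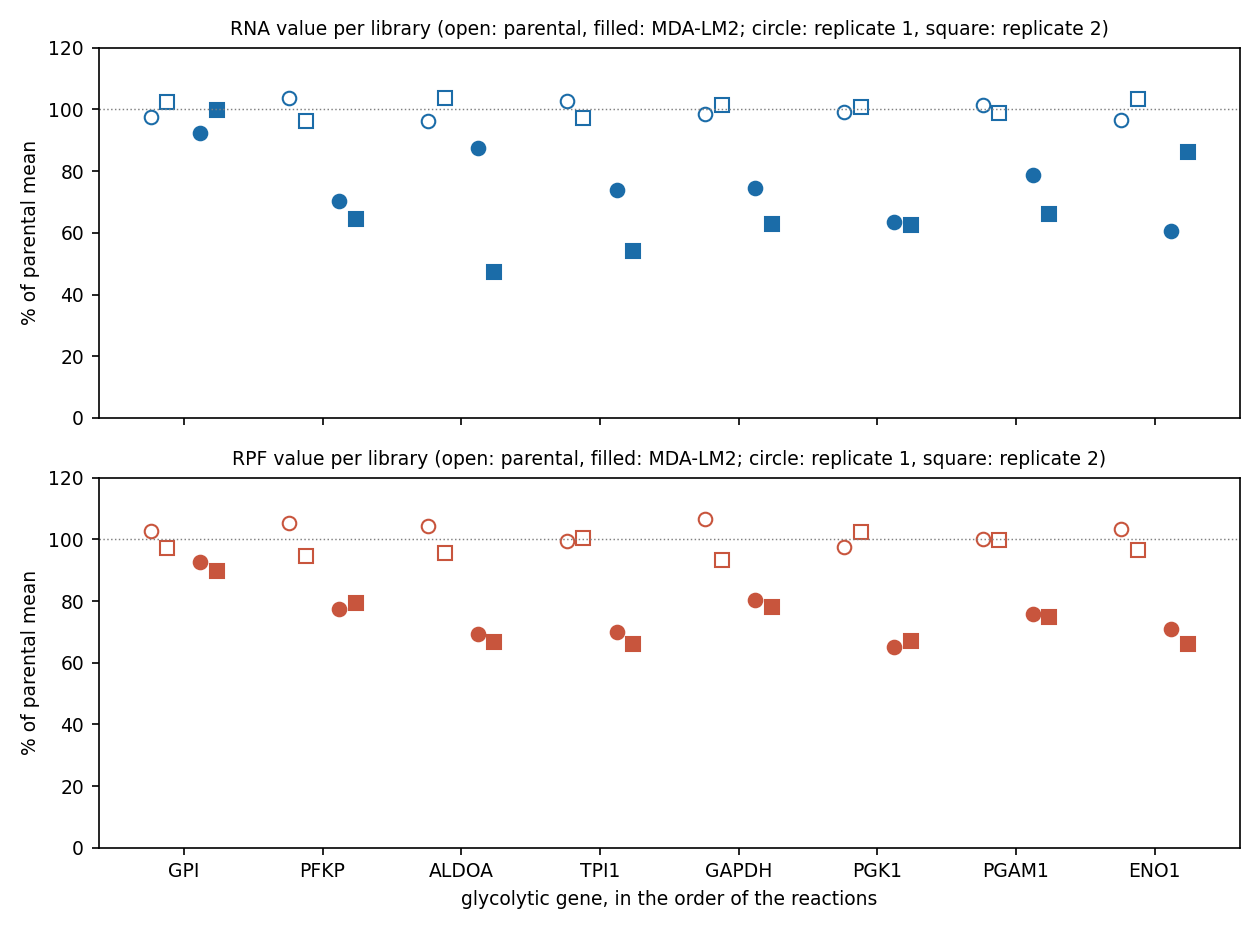
RNA value (top) and RPF value (bottom) of each glycolytic gene in every parental (open) and MDA-LM2 (filled) library, as a percentage of the parental mean, with circles for replicate 1 and squares for replicate 2. All MDA-LM2 points lie below the parental points except in GPI RNA, and the MDA-LM2 RNA replicates of ALDOA and ENO1 spread far more than their RPF replicates.

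Counted together, 3 of the 8 glycolytic genes (PGK1, PFKP and TPI1) fell in RNA in MDA-LM2 cells and none rose. Of all 8393 transcripts tested, 15.2% were called in RNA and 9.44% were called lower. In RPF 7 of the 8 fell, all but GPI, and none rose, where 12% of all transcripts were called and 7.03% were called lower. The replicates did not overlap, with MDA-LM2 lower, for 7 of 8 genes in RNA and 8 of 8 in RPF, against 33.6% and 27.6% of all transcripts tested. The median log2 change of the 8 genes was -0.56 in RNA and -0.48 in RPF, and that of all transcripts was -0.02 and -0.01. PGK1 is among the genes counted here, and its fall in RNA and RPF was known beforehand. These counts and medians, and the summed shares below, therefore include a change known in advance.

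The set was also read against transcripts of like abundance. The 260 tested transcripts with a mean RNA value of at least 3944, that of GPI, the lowest of the set, had a median log2 change of -0.26 in RNA and -0.17 in RPF, and 12.3% and 26.2% of them were called lower. The summed share of the 8 genes in the library total went from 1.48% and 1.54% in the parental RNA replicates to 1.19% and 1.17% in MDA-LM2, and from 1.06% and 1.00% to 0.801% and 0.777% in RPF. These are shares and scaled values, and in bulk samples fewer cells of a type and less RNA per cell cannot be told apart.

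The RNA count turned on single libraries: 7 genes passed when either MDA-LM2 replicate was left out and 0 when either parental replicate was left out, with the lone replicate of a line then assumed to vary like the other line. The RPF count ranged from 5 to 7 over the same omissions, and was 5 after quantile normalization.

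The TE of the glycolytic genes did not pass the test in MDA-LM2 cells for any of the 8 by limma, and 0 had an unadjusted p under 0.05. Their log2 TE changes ranged from -0.08 (ENO1) to 0.23 (PFKP), with a median of 0.07 beside 0.03 for all transcripts, of which 0.0357% were called. The direction of 4 of the 8 (PGK1, ALDOA, TPI1 and PGAM1) turned with libraries scaled to equal totals. The TE replicates of PFKP and PGK1 did not overlap. The share of all transcripts apart in TE was not counted, so this does not set these genes apart. PFKP had TE values of 0.0908 and 0.0876 in parental cells and 0.0985 and 0.110 in MDA-LM2 cells. The logistic regression used by the study, which takes reads rather than replicates as units, called GAPDH higher (log2 change 0.20, adjusted p = 1.22e-05) and called 2.16% of all transcripts. The GAPDH TE values were 0.0307 and 0.0261 in parental cells and 0.0306 and 0.0352 in MDA-LM2 cells, which overlap. By limma the GAPDH change was 0.21, with an interval of -0.13 to 0.55 and an adjusted p of 0.358 or more under every alternative run.

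After the HNRNPC knockdown, PFKP and ENO1 fell in RNA and none of the 8 rose, while 16% of 4283 transcripts were called and 11.3% were called lower. PFKP gave RNA values of 1034 and 1018 in sgControl and 718 and 698 in sgHNRNPC, and its log2 change of -0.53 ± 0.06 (SE, adjusted p = 1.11e-11) ranked 17 of all transcripts by p. ENO1 gave 8586 and 8313 in sgControl and 7582 and 7435 in sgHNRNPC, a smaller change of -0.17 ± 0.04 (SE, adjusted p = 0.000493). Both calls held under every alternative run. The other 6 genes had RNA changes between -0.12 (GPI) and 0.01 (TPI1), and GPI had an interval of -0.22 to -0.01 with an adjusted p of 0.115. The replicates did not overlap, with sgHNRNPC lower, for 5 of 8 genes, against 34.6% of all transcripts.

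No glycolytic gene passed the test in RPF after the knockdown by limma, where 0.0233% of all transcripts were called, and 1 (ALDOA) had an unadjusted p under 0.05. The RPF values of ALDOA were 162 and 166 in sgControl and 177 and 250 in sgHNRNPC (log2 change 0.36 ± 0.16, SE, adjusted p = 0.587). PFKP, whose RNA fell, had RPF values of 105 and 110 in sgControl and 98.3 and 134 in sgHNRNPC, which overlap. ENO1, whose RNA also fell, had RPF values of 324 and 362 in sgControl and 266 and 305 in sgHNRNPC. These did not overlap and did not pass (log2 change -0.26 ± 0.15, SE, adjusted p = 0.725 by limma). The RPF replicates were far apart in this pair, with a median absolute log2 difference over tested transcripts of 0.242 in sgControl and 0.295 in sgHNRNPC, and the 95% interval of the PFKP RPF change ran from -0.25 to 0.45.

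The TE of PFKP was 0.101 and 0.108 in sgControl and 0.137 and 0.192 in sgHNRNPC, higher without overlap. Its log2 TE change of 0.63 ± 0.20 (SE, unadjusted p = 0.00994) did not pass adjustment (adjusted p = 0.57 by limma), and 0% of transcripts did, with 332 of 4283 at an unadjusted p under 0.05. The logistic regression called PFKP (adjusted p = 0.00763), together with 0.257% of all transcripts. The limma adjusted p of this change lay between 0.239 and 0.822 over the alternatives run. The other 7 genes had TE changes between -0.14 (TPI1) and 0.37 (ALDOA), and none passed by either test after adjustment. The TE replicates of ALDOA did not overlap either, at 0.0914 and 0.0944 in sgControl and 0.104 and 0.138 in sgHNRNPC. Here too, the share of all transcripts apart in TE was not counted.

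**Figure D3:**
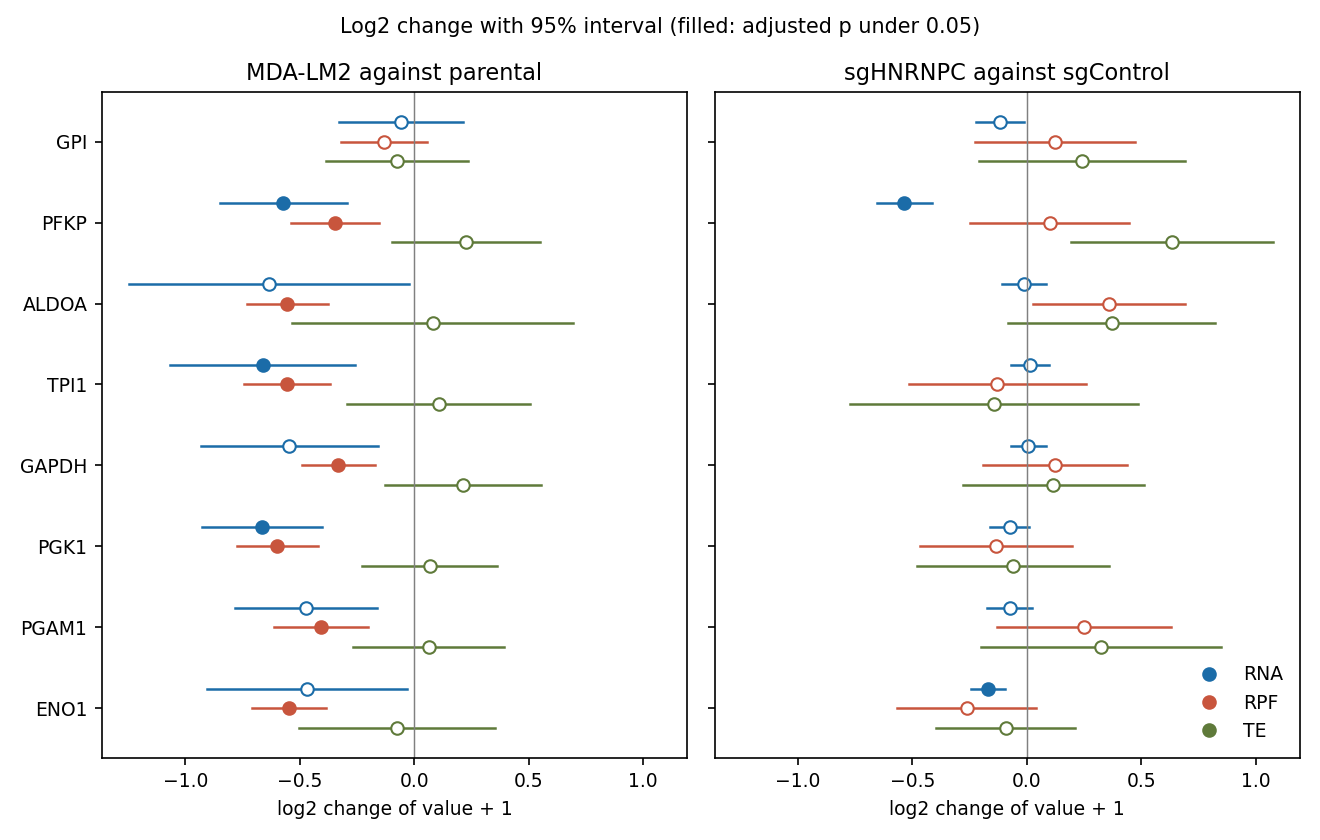
Log2 change in RNA, RPF and TE of each glycolytic gene for MDA-LM2 against parental cells (left) and sgHNRNPC against sgControl (right), with 95% intervals from the limma fit; filled points passed an adjusted p under 0.05. RNA and RPF of 7 genes shift left together in MDA-LM2, whereas in the knockdown PFKP and ENO1 RNA are the filled points.

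The genes differed widely in level. Compared per length, with RNA divided by transcript length and RPF by coding length, GAPDH led in parental cells at 48470 ± 970.4 normalized RNA counts per kilobase (SD, n = 2), rank 2 of 10553 annotated transcripts. ENO1 followed at 9848 ± 456, then TPI1 at 8433 ± 339, PGAM1 at 4206 ± 77.1, ALDOA at 4045 ± 215, PFKP at 2166 ± 111, PGK1 at 1264 ± 15.2 and GPI at 927 ± 32.5. Of these neighbours, PGAM1 and ALDOA overlapped between replicates. All 8 genes lay at or above the 93.9 percentile for RNA.

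In footprints per kilobase of coding sequence the parental order was GAPDH at 1753 ± 168 (SD, n = 2), ENO1 at 1201 ± 57.3, TPI1 at 694 ± 4.896, ALDOA at 679 ± 40.9, PGK1 at 653 ± 22.2, PGAM1 at 478 ± 1.35, GPI at 283 ± 11.02 and PFKP at 216 ± 16.6. The replicates of ALDOA overlapped with those of TPI1 and of PGK1, and no other neighbours in this order overlapped. PGK1 thus stood above GPI alone in RNA but above PGAM1, GPI and PFKP in RPF. In MDA-LM2 cells it was the lowest of the 8 in RNA, at 797 ± 9.98 (SD, n = 2) behind GPI at 890 ± 49.6, and stood above the same genes in RPF, at 431 ± 8.36.

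On the same per-length scale PGK1 had the highest TE of the set in parental cells, 0.517 ± 0.0114 (SD, n = 2), at the 76.4 percentile of 8200 tested transcripts with an annotation. GPI came next at 0.306 ± 0.0226. The other 6 lay below the median of 0.258, down to GAPDH at 0.0362 ± 0.00419, at the 1.83 percentile. PGK1 also led in MDA-LM2 cells, at a mean of 0.541 against 0.291 for GPI. In the knockdown pair the replicates of PGK1 and GPI overlapped. Their means were 0.232 and 0.214 in sgControl and 0.2245 and 0.249 in sgHNRNPC. PGK1 and GPI are also the genes with the longest annotated transcripts of the set, at 4812 and 4341 bases. RNA was divided by the whole annotated length, and which 3′ ends these cells used was not tested here. The study sequenced mRNA 3′ ends in these lines, and those data were not used.

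**Figure D4:**
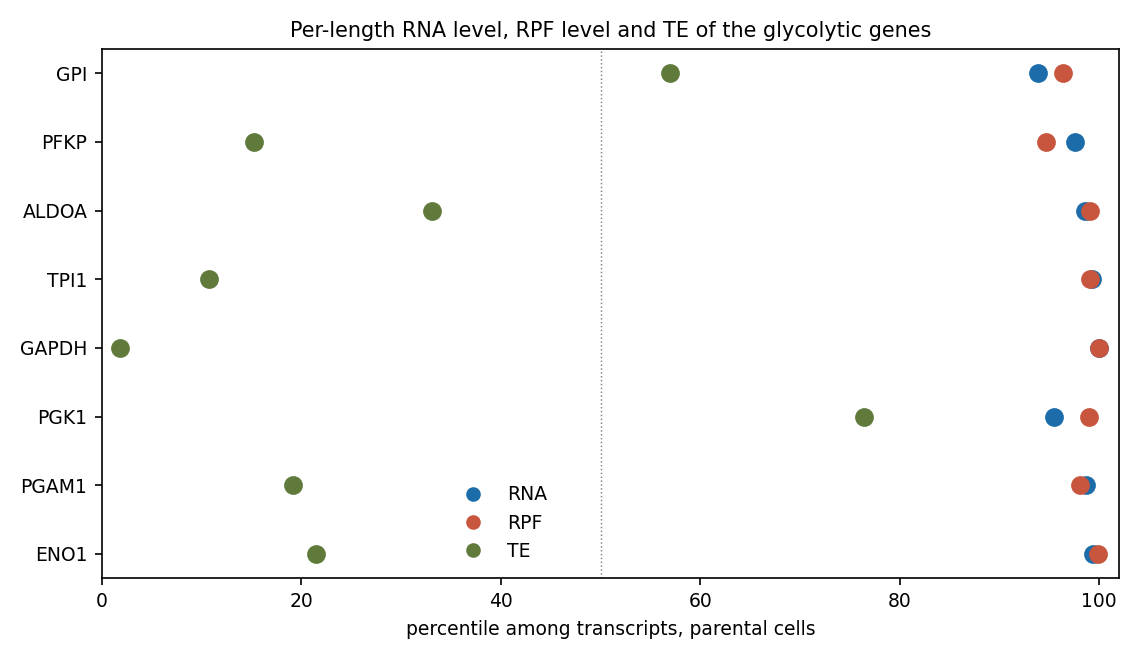
Percentile of each glycolytic gene among annotated transcripts of parental cells, for RNA per kilobase of transcript, RPF per kilobase of coding sequence and their ratio (TE). The RNA and RPF points lie at or above the 93.9 percentile, whereas the TE points run from the 1.83 percentile of GAPDH to the 76.4 percentile of PGK1.

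The mRNAs themselves were compared with 10577 annotated transcripts of the tables. The coding sequences were of ordinary length, from 765 bases (PGAM1) to 2355 bases (PFKP) around a median of 1431. GC content at the third codon position was 65.5% to 75.4% in 7 genes and 56.0% in PGK1, where the median transcript had 57.4%. The annotated 3′ UTRs were short, at 920 bases or less, except in GPI (2377 bases) and PGK1 (3465 bases, 84.4 percentile). HNRNPC is known to bind runs of uridine. A run of at least 6 T was found in 63.7% of all 3′ UTRs and in 2 of these 8, with 13 runs in GPI and 5 in PGK1. Introns were not searched, and whether HNRNPC binds any of these mRNAs was not tested here. The study mapped HNRNPC binding to RNA in MDA-MB-231 cells, and those data were not used.

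Promoters of the other genes were searched for ACGTG on both strands in the same window, using for each gene the RefSeq start nearest to the 5′ end of the measured transcript. The motif was present in 4 of the 8 (PGK1, ALDOA, GAPDH and GPI) and in 21.4% of 35116 promoters. PGK1, ALDOA and ENO1 had a RefSeq start at the very base where the measured transcript begins. The others began 252 to 1627 bases away. The matches outside PGK1 are shown with 10 bases on either side, for comparison with the PGK1 promoter above. GAPDH holds 2 overlapping matches, CACGT and ACGTG shifted by 1 base, of which CACGT is in capitals. The letters of ALDOA lie at chr16:30065552-30065576, of GAPDH at chr12:6535173-6535197 and of GPI at chr19:34364820-34364844, all on the plus strand:

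ALDOA: tggtccgagtCACGTccgagggggg
GAPDH: tctgcggggtCACGTgtcgcagagg
GPI: actgcctgtaACGTGgaaggtgttc

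The letters were not found in the windows of PFKP, TPI1, PGAM1 and ENO1, and whether the motif plays a part in any change was not tested. The variant GCGTG was present in 2 of the 8 (PGK1 and ENO1) and in 36.5% of all promoters.

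Other enzymes of glycolysis were less uniform in MDA-LM2 cells. Of 9 tested isozymes and further enzymes, 2 fell and 1 rose in RNA (median log2 change -0.18), and 2 fell and 0 rose in RPF (-0.17). Of all transcripts tested, 15.2% were called in RNA and 12% in RPF. ENO2, the neuronal enolase, fell in both, from RNA values of 1249 and 1233 to 701 and 712 (log2 change -0.81, adjusted p = 0.00362) and from RPF values of 160 and 153 to 81.2 and 111 (-0.72, adjusted p = 0.000654). HK2, the inducible hexokinase, fell in RNA, from 888 and 864 to 647 and 628 (-0.46, adjusted p = 0.0304), and its RPF replicates overlapped. ADPGK, an ADP-dependent glucokinase, rose in RNA from 278 and 287 to 490 and 438 (0.71, adjusted p = 0.00997), and its RPF replicates overlapped. PGAM4 fell in RPF (-0.50, adjusted p = 0.00681), with the reservation on PGAM1 given above.

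PKM and LDHB, which act after enolase, did not pass the test. PKM, pyruvate kinase, gave RNA values of 26410 and 26156 in parental cells and 26573 and 20318 in MDA-LM2 cells, and RPF values of 1304 and 1337 against 1248 and 1176 (log2 RPF change -0.12 ± 0.08, SE). LDHB, a lactate dehydrogenase subunit, had log2 changes of 0.12 in RNA and -0.19 in RPF. PFKL and PFKM, the liver and muscle types of phosphofructokinase, had RNA changes of -0.43 (adjusted p = 0.105) and -0.08 (adjusted p = 0.661), and ALDOC, the brain aldolase, one of 0.15 (adjusted p = 0.654).

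Falls of over 1 on the log2 scale were found at glucose entry, in the pentose phosphate branch and among the regulators of flux. SLC2A1, the main glucose transporter of many tumour cells, had RNA values of 7338 and 6778 in parental cells and 3210 and 2606 in MDA-LM2 cells, and RPF values of 629 and 644 against 268 and 271. Its log2 change was -1.29 ± 0.14 (SE, adjusted p = 0.00176) in RNA and -1.24 ± 0.09 (SE, adjusted p = 4.44e-12) in RPF. SLC16A3, a lactate exporter, fell by 0.76 in RNA (adjusted p = 0.00712) and by 0.41 in RPF (adjusted p = 0.00353). These 2 were the transporters that passed, of 8 tested in each kind of library, and none rose. That stands beside 15.2% of all transcripts called in RNA and 12% in RPF. BSG, the chaperone of the lactate carriers, had log2 changes of -0.39 in RNA (adjusted p = 0.158) and -0.22 in RPF (adjusted p = 0.147).

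PGD, an NADPH-yielding dehydrogenase of the pentose phosphate pathway, gave RNA values of 2207 and 2136 in parental cells and 1195 and 966 in MDA-LM2 cells. RPF values of PGD went from 269.9 and 267 to 164 and 167. Neither kind of library overlapped, with log2 changes of -1.01 (adjusted p = 0.00378) in RNA and -0.69 (adjusted p = 3.32e-05) in RPF. PGLS, a lactonase of the same branch, fell in RNA (-0.56, adjusted p = 0.0429) and had an RPF change of -0.21 (adjusted p = 0.522). Of the non-oxidative enzymes, TKT, transketolase, had log2 changes of -0.38 in RNA (adjusted p = 0.159) and -0.33 in RPF (adjusted p = 0.0149), and TALDO1, transaldolase, of -0.19 and 0.01.

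Among 10 tested regulators of flux, PFKFB2 and PFKFB4, which control the activator of phosphofructokinase, fell in RNA (log2 changes -1.16 and -0.69). Their RPF changes of -0.75 (adjusted p = 0.174 by limma) and -0.95 (adjusted p = 0.0907) did not pass. PFKFB3, of the same family, had changes of -0.07 in RNA (adjusted p = 0.834) and 0.13 in RPF (adjusted p = 0.741). TIGAR, which removes this activator, rose in RNA (0.55, adjusted p = 0.0306), and its RPF replicates overlapped. Calls over all transcripts came to 15.2% in RNA and 12% in RPF. In RPF, PDK1, a kinase that shuts pyruvate dehydrogenase, went from 15.2 and 22.0 to 3.84 and 8.63 (adjusted p = 0.0183 by limma). Both MDA-LM2 values lie under the minimum mean of 10, so PDK1 was tested only through its parental values and this call carries little weight. PDK1 RNA was 75.3 and 66.0 in parental cells and 69.5 and 40.8 in MDA-LM2 cells, which overlap. The RPF values of HIF1A fell from 547 and 580 to 372 and 447 (adjusted p = 0.00115 by limma). HIF1A RNA was 1119 and 1181 in parental cells and 870 and 1162 in MDA-LM2 cells, which overlap. TXNIP, a brake on glucose uptake, changed by -0.23 in RNA and -0.16 in RPF, and neither passed.

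Hypoxia targets outside glycolysis did not share a direction. Of 15 with a matched transcript, 12 were tested, and CA9, EGLN3 and ANKRD37 fell under the minimum mean. Of the untested genes, CA9 RNA went from 11.1 and 7.99 to 77.0 and 62.1, and EGLN3 RNA from 49.8 and 63.0 to 38.5 and 37.2. Among the 12 tested, BNIP3 and NDRG1 fell in RNA, whereas ADM, VEGFA and P4HA1 rose. In RPF BNIP3 and NDRG1 fell, and ADM and KDM3A rose. The shares called among all transcripts were 15.2% in RNA and 12% in RPF. ADM, adrenomedullin, went from RNA values of 103 and 84.9 to 315 and 274 (log2 change 1.64, adjusted p = 0.00112). VEGFA, the vascular growth factor, went from 317 and 301 to 544 and 482 (0.73, adjusted p = 0.00945). The median log2 change of these 12 genes was 0.12 in RNA and 0.10 in RPF, against -0.56 and -0.48 for the 8 glycolytic genes. In TE, no gene of these lists passed by limma in either comparison, where 0.0357% (MDA-LM2) and 0% (knockdown) of all transcripts were called. In the knockdown, none of the tested isozymes (7), transporters (3) or regulators (4) passed in RNA, with 2, 0 and 1 at an unadjusted p under 0.05. Among all transcripts 16% were called there. Of the pentose phosphate genes, TKT (log2 change -0.25, adjusted p = 0.0012) and TALDO1 (-0.29, adjusted p = 0.00354) fell. VEGFA rose there in RNA (0.41, adjusted p = 0.00373), and BNIP3L (-0.26, adjusted p = 0.000716) and NDRG1 (-0.24, adjusted p = 0.000173) fell. HK2 (-0.19, adjusted p = 0.0861) and TXNIP (0.18, adjusted p = 0.0829) did not pass. In RPF no gene of these lists passed after the knockdown by limma, where 0.0233% of all transcripts were called. P4HA1, a collagen prolyl hydroxylase, had RPF values of 34.0 and 42.9 in sgControl and 16.8 and 19.9 in sgHNRNPC, which did not overlap (log2 change -1.02, unadjusted p = 0.000365, adjusted p = 0.223). Its TE change of -1.20 ranked 1 of 4283 transcripts by p and did not pass adjustment either (unadjusted p = 0.000371, adjusted p = 0.57). P4HA2, its paralogue, had an RPF change of 0.62 (unadjusted p = 0.0227, adjusted p = 0.545).

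**Figure D5:**
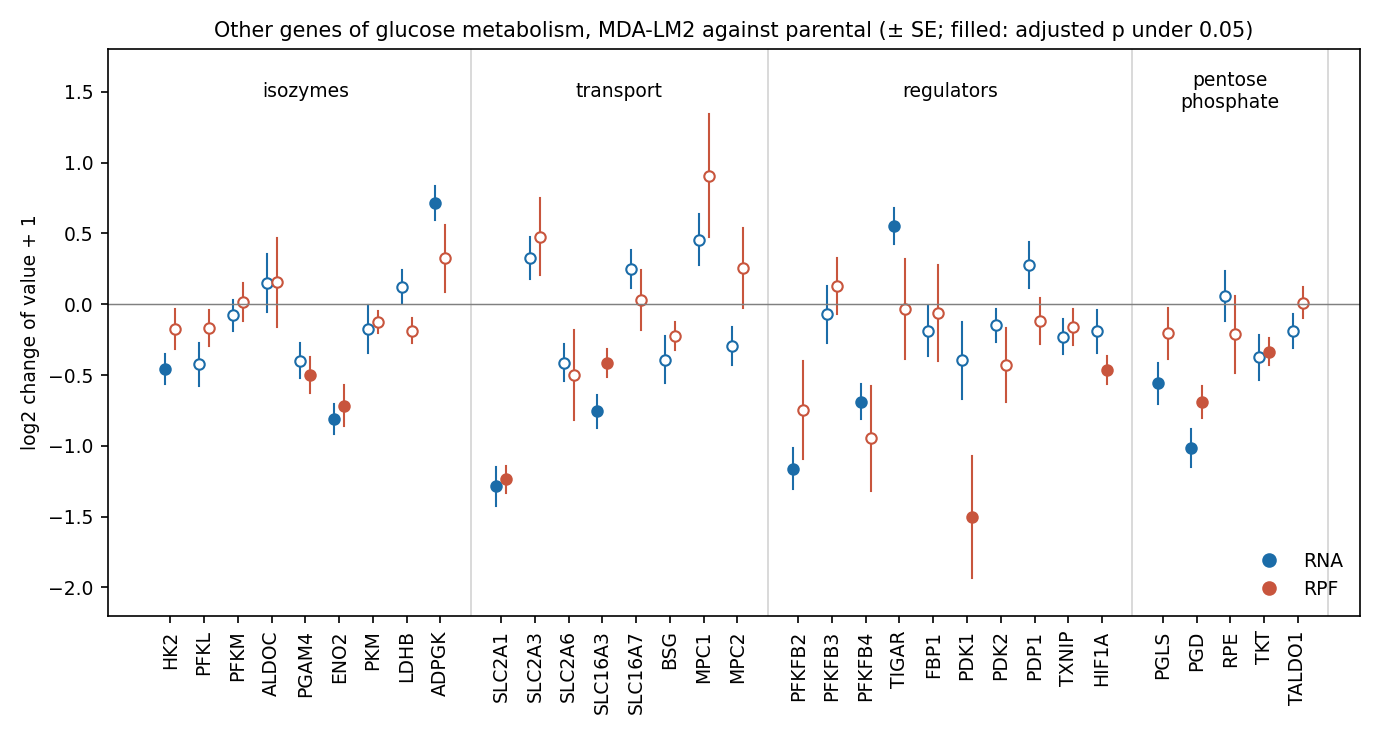
Log2 change in RNA and RPF (points, ± SE) of the tested isozymes, transporters and regulators and of 5 pentose phosphate genes in MDA-LM2 against parental cells; filled points passed an adjusted p under 0.05. SLC2A1 and PGD are filled and below 0 in both kinds of library, and ADPGK and TIGAR RNA are the filled points above 0.

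The genes whose values ran most like those of PGK1 were sought over all 16 libraries, after centring log2 values within each kind of library of each table. Among 4279 other genes tested in both tables, PTPRJ (Pearson r = 0.995), ACLY (0.9685) and CYP1B1 (0.961) came closest. Of the glycolytic genes, TPI1 ranked 41 (0.920), GAPDH 109, ENO1 162 and PFKP 295, and GPI ranked 1245. These r values are descriptions: the 16 libraries come from 4 lines, and RNA and RPF share lysates.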

How the data were processed

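RNA and ribosome footprints were sequenced from 4 lines with 2 replicates each, 16 libraries in all. Per the authors, footprint reads were trimmed with cutadapt 2.3, collapsed by molecular identifier, cleared of rRNA and tRNA with Bowtie2 2.3.5 and aligned to 1 mRNA per gene. RNA reads were mapped to the same reference. The deposited values (unit: signal) are normalized counts per transcript, scaled by median of ratios by the authors, separately for RNA and RPF and for each of 2 tables. Whether a correction for stalled ribosomes was applied is not given in the sources used here, and no test was made across tables.

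GENCODE version 44 named 97.93% and 97.86% of the listed transcripts. Transcripts averaging 10 or more in both RNA and RPF were tested on log2(value + 1) with limma 3.58.1 (R 4.3.3, trended empirical Bayes, two-sided, Benjamini-Hochberg over all tested transcripts, called under 0.05). RNA and RPF were fitted on their own 4 libraries, and TE as the interaction over 8. The fits were tested on simulated data. The members, gene lists and tests were chosen with earlier results of these data known. All 10 listed genes are named where matched, with HNRNPC, the main pathway genes wherever listed, other list genes where called, and the 3 genes most like PGK1. P4HA2, given beside P4HA1, PFKFB3, the untested CA9, EGLN3 and ANKRD37, and the markers of the line are named outside this rule. Some results on the pathway lists are not reported here. Per the authors' methods, the replicates are biological duplicates. Depth of the RPF libraries is unknown, so no counting interval is given.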

Additional observations from a re-analysis of the deposited data

How the results depend on the processing

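Of the alternative counts of called glycolytic genes, 68 stayed within 1.5 times of the reported count, 8 were higher and 2 were lower. Leaving out each replicate in turn gave 0 to 7 called genes in MDA-LM2 RNA. Logistic regression called 1 gene in TE in each comparison by adjusted p and 2 by an unadjusted p under 0.01. In the knockdown, quantile normalization called 1 gene in RPF (ENO1, -0.345, adjusted p = 0.0053, range over its alternatives 0.0053 to 0.999), and an unadjusted p under 0.01 called 1 in TE. The causes were not tested. A count test on reads was planned and not run, because whole reads could not be recovered for RPF. Equal totals moved the median of all transcripts in MDA-LM2 RNA from -0.020 to 0.149 and that of the glycolytic genes from -0.558 to -0.388.

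With the replicate block, 4 genes were called in MDA-LM2 RNA (PGAM1 was added, -0.471, adjusted p = 0.0343) and 7 in RPF, 0 in TE, and in the knockdown 2, 0 and 0. The numbers share lysates within a line only, and with 2 pairs, same-numbered samples deviated together at r = 0.234 in MDA-LM2 RNA, 0.0443 in RPF, -0.00377 in knockdown RNA and 0.0281 in RPF, so pairing was not established.

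The log2 changes that turned sign with equal totals were GPI RNA 0.112, TPI1 TE -0.007, PGAM1 TE -0.052, PGK1 TE -0.047, ALDOA TE -0.034 in MDA-LM2 against parental cells and GAPDH RNA -0.012, TPI1 RNA -0.004 in the knockdown. The log2 changes that turned sign with quantile normalization were GPI RNA 0.143, GPI RPF 0.011, TPI1 TE -0.066, PGAM1 TE -0.100, PGK1 TE -0.042 in MDA-LM2 against parental cells and ALDOA RNA 0.027, GAPDH RPF -0.039, GAPDH TE -0.060 in the knockdown. With each replicate left out in turn, the log2 changes that turned sign in MDA-LM2 against parental cells ranged from -0.382 to 0.228 for ENO1 TE, from -0.334 to 0.496 for ALDOA TE, from -0.076 to 0.291 for TPI1 TE, from -0.055 to 0.181 for PGAM1 TE, from -0.155 to 0.004 for GPI TE. With each replicate left out in turn, the log2 changes that turned sign in the knockdown ranged from -0.044 to 0.542 for PGAM1 RPF, from -0.116 to 0.362 for GPI RPF, from -0.062 to 0.293 for GAPDH TE, from -0.014 to 0.497 for GPI TE, from -0.019 to 0.033 for GAPDH RNA, from -0.018 to 0.046 for TPI1 RNA, from -0.205 to 0.020 for ENO1 TE, from -0.295 to 0.174 for PGK1 TE, from -0.057 to 0.034 for ALDOA RNA, from -0.504 to 0.247 for TPI1 RPF, from -0.340 to 0.068 for PGK1 RPF, from -0.492 to 0.207 for TPI1 TE, from -0.058 to 0.303 for GAPDH RPF, from -0.124 to 0.323 for PFKP RPF. None of these log2 changes had passed the test as reported.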
